A study of Mus musculus with 6 samples.

Results

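The genes described here are 41 genes of DNA replication and S phase, chosen by symbol for what they are known to do. They were found as rows of a table of 52550 genes, counted in cells sorted as mouse alveolar epithelial type II (AT2) cells. AT2 cells are the cells of the lung alveolus that make surfactant. All 41 had a row, and the lowest count of any of them in any library was 32, so all 41 passed the low-count filter and were tested. RNA was sequenced from C57BL/6 mouse lungs digested with dispase, from cells kept by magnetic sorting as CD45-negative and EPCAM-positive. Every mouse carried a tamoxifen-inducible Cre at 1 Sftpc allele (Sftpc+/creERT2), which confines recombination to cells that use the Sftpc promoter, and floxed alleles of Grp78 (Grp78f/f), the main chaperone of the endoplasmic reticulum, encoded by Hspa5. The genotype label of the 3 libraries titled Control ends in "without Tmx" and that of the 3 titled Grp78KO in "with Tmx", Tmx being read here as tamoxifen, so that tamoxifen and the loss of Grp78 cannot be told apart. The day label counts 10 days from an injection of Tmx in all 6 libraries, controls included, which conflicts with the controls' genotype label. No label gives an age, says that the libraries came from separate animals, or says whether animals were pooled. P-values therefore measure the spread between these libraries, which may be technical.

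A cell copies its DNA once per division. In G1 the origin recognition complex, Cdc6 and Cdt1 load the MCM2-7 helicase onto DNA, a step called licensing. The E2F transcription factors, which Rb proteins hold back in resting cells, activate S-phase genes. At the start of S phase cyclin E with Cdk2 helps to set off firing. Cdc45 and the GINS complex join the helicase, and primase and the polymerases make DNA. The PCNA clamp, put onto DNA by its RFC loader, holds the polymerases in place. Fen1 and Lig1 finish the lagging strand, and Uhrf1 and CAF-1 rebuild chromatin. AT2 cells are mostly resting in the healthy adult lung and divide when the alveolus is repaired.

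Library totals ran from 110770711 to 149520306 counts. Levels are CPM (the usual read count scaled to a fixed library total) adjusted by TMM, which sets libraries on a common scale by their middle genes. Folds are the knockout-labelled libraries over the controls on the log2 scale, each with its standard error (SE), and a gene was called where edgeR's Benjamini-Hochberg adjusted p over all 18849 genes tested was under 0.05. Hspa5 stood at 1355, 1288 and 925 CPM in controls 1, 2 and 3 and at 9262, 9180.5 and 3809 CPM in libraries 1, 2 and 3 labelled Grp78KO (log2 fold 2.64, SE 0.361, edgeR adjusted p = 0.00208). The labelled target was thus higher, not lower, and whole-gene counts cannot show whether the floxed exons were lost, so each direction below is one between libraries as labelled. The 12 AT2 markers were all present and summed to 53412 CPM or more in each library, and all 12 were called lower in the knockout-labelled libraries. The libraries numbered 3 deviated together from their group means, with a correlation of 0.337 across genes. With the other numbers in the opposite group their deviations correlated at -0.374 to -0.205. Deviations cancel out within each group, so these negative values follow in part from the positive one. The counts of members and of other replication genes are given with and without the libraries numbered 3. All 8 airway markers were also present, with Scgb1a1, a club cell gene, at 26136 to 48330 CPM. In libraries 1, 2 and 3 labelled Grp78KO, Scgb1a1 was at 27830, 30127 and 26914 CPM. The AT2 marker Sftpc was lower there, at 15506, 14460 and 18606 CPM, and was above Scgb1a1 in each control. The sorted cells were thus not AT2 cells alone. None of the 8 airway markers was called by edgeR (1, Tubb4b, at an unadjusted p under 0.05). Of those 8, 5 were called lower without control 3, and 7 were lower and 1 higher without both libraries numbered 3; DESeq2 and the replicate block each called 1 higher on all libraries and limma-voom none.

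Of the 41 replication genes, 29 (70.7%) were called higher in the knockout-labelled libraries and none lower. Of all genes tested, 36.8% were called, 18.0% higher and 18.8% lower. The members' median log2 fold was 0.70, beside 0.02 over all genes tested, and 40 of 41 folds were positive. The exception was E2f2, which at an unadjusted p under 0.05 was the 1 member lower in edgeR and was called lower by DESeq2 and limma-voom. All 3 knockout-labelled libraries lay above all 3 controls for 32 members, where 25.0% of all genes tested did so, and below them for E2f2 alone, where 26.6% did so. The groups thus did not overlap for 33 members (51.6% of all genes tested) and overlapped for 8. Of the members called, 15 were at least 2-fold higher, with Rrm2, Ccne1, Orc1 and Cdc6 at the top. In sorted bulk cells, more cells in S phase and more RNA of these genes per cell cannot be told apart.

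Without control 3 the count called higher was 30, without library 3 labelled Grp78KO it was 33, and without both it was 38. Of all genes tested, 14.1%, 22.0% and 28.3% were called higher in these fits. E2f2 was called lower in the last 2 of these fits. Without library 3 labelled Grp78KO, Orc2, Gins4, Pola2, Pold1, Pcna and Rfc3 joined the calls and Chaf1a and Pole left them. Without control 3, Pola2 and Ccne2 joined them and Rfc2 left. Leaving out control 2 or library 2 labelled Grp78KO lowered the count to 18 and 19. The share of all genes tested that was called higher fell as well, to 8.67% and 9.82%. With scaling by library size alone 38 were called higher, but that scaling moved the median gene of the whole table by 0.26 on the log2 scale and put 82.2% of all calls on the higher side, against 48.9% with TMM (59.2% with upper-quartile factors). Fitted with the replicate number as a block, 31 members were higher and 1 lower, and 21.9% of all genes tested were higher.

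**Figure D1:**
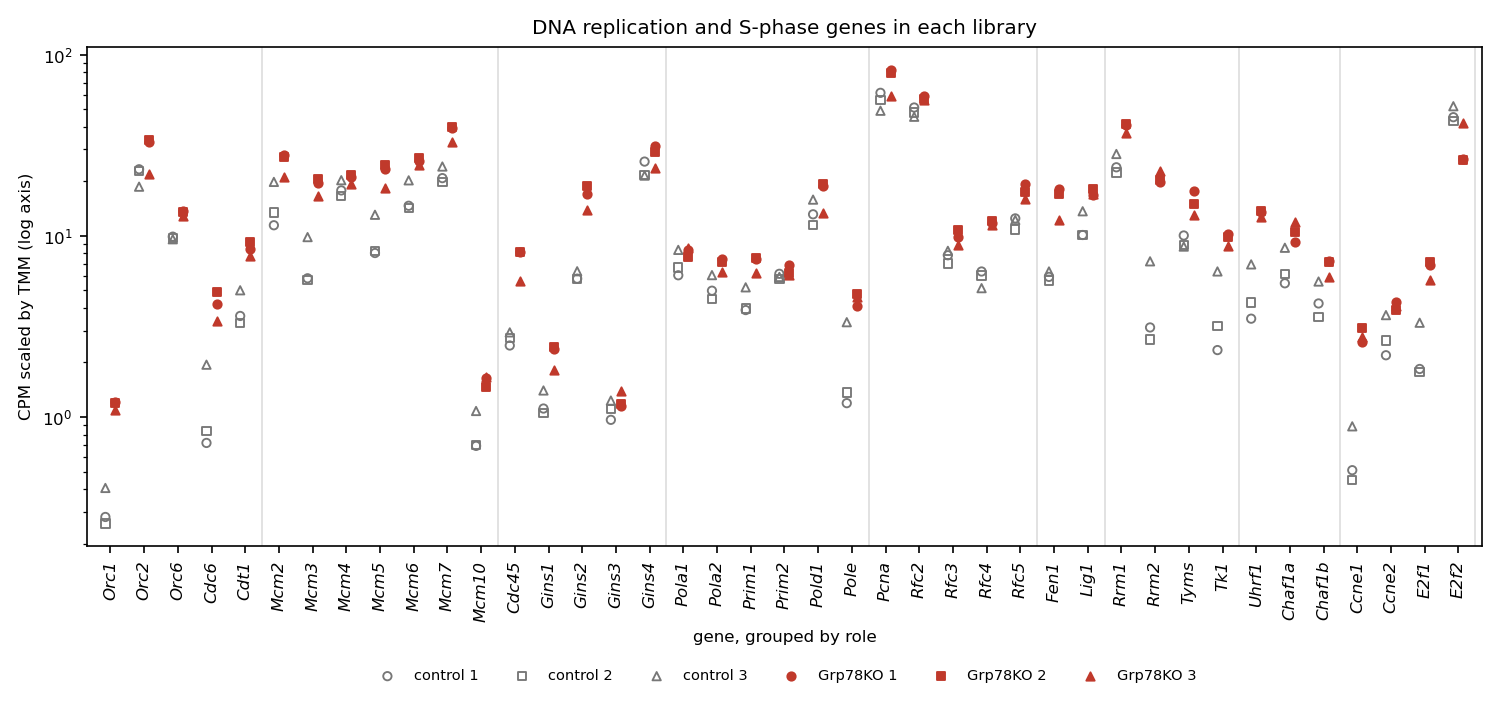
CPM scaled by TMM (log axis) of each of the 41 genes in each library, with open grey symbols for controls 1 to 3 and filled red symbols for libraries 1 to 3 labelled Grp78KO; grey lines part the roles. Red symbols lie above grey ones for 32 genes, E2f2 lies the other way, and control 3 (open triangle) is the highest control for 32 genes.

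**Figure D2:**
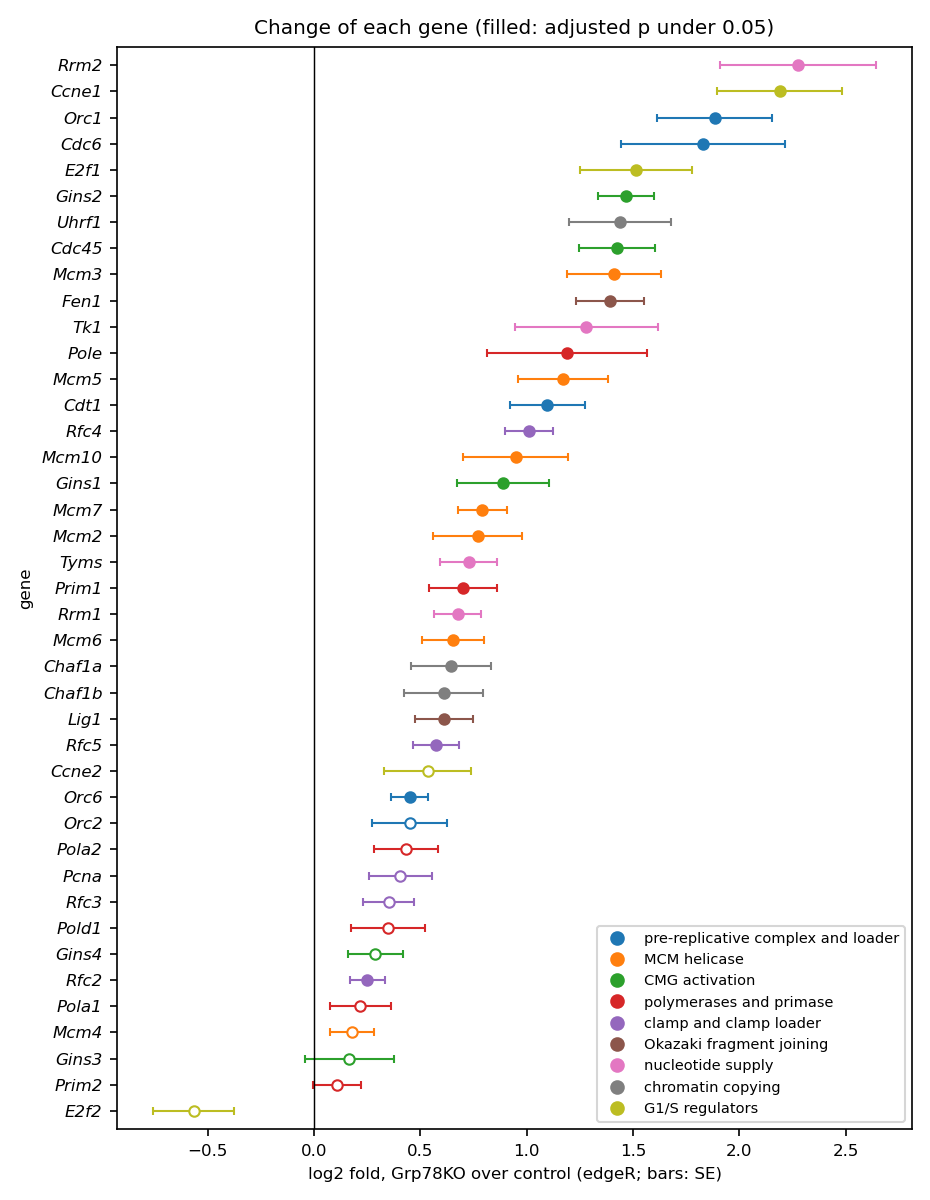
Log2 fold of each gene, knockout-labelled libraries over controls, from edgeR with bars of 1 SE, coloured by role and filled where the adjusted p was under 0.05. Folds run from -0.57 for E2f2 to 2.28 for Rrm2, and 29 genes are filled.

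Promoter windows were searched because the members moved together and many replication genes are known E2F targets. RefSeq promoter sequences (GRCm38.p6, 250 bases before to 50 after an annotated start) were at hand for 33 of the 41 genes. An E2F-type word was taken as TTTCCCGC, TTTGGCGC, TTTCGCGC or TTTGCCGC on either strand, words that can overlap one another where they face each other. At least 1 such word lay in the window of 14 of the 33 members (42.4%), of 4.14% of the 13010 tested genes that have a window and of 2.60% of all 27025 genes that have one. The word CCAAT, on either strand, lay in 60.6% of the members' windows and in 41.9% of those of tested genes. TTTGAA, the letters of the cell cycle homology region, was as common in the members (15.2%) as in tested genes (15.0%). A match is a description of letters and not a shown binding site.

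The upstream stretches below show 6 genes that hold an E2F-type word before the start, 4 of them called higher and the other two not, and Rrm2, which had the largest rise and holds none. Each is the 160 bases before the RefSeq start, which can differ from the GENCODE start used for positions elsewhere, 5′ to 3′ on the gene's strand, with E2F-type words and CCAAT (or ATTGG) in capitals.
Orc1 (chr4:108579294-108579453, plus strand): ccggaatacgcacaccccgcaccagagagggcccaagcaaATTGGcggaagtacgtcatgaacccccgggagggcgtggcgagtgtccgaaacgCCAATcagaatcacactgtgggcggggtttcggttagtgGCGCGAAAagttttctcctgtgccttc
Cdc6 (chr11:98907991-98908150, plus strand): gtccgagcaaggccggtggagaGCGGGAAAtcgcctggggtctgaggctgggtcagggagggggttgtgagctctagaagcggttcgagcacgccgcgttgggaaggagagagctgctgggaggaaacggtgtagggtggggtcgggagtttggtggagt
Mcm5 (chr8:75109349-75109508, plus strand): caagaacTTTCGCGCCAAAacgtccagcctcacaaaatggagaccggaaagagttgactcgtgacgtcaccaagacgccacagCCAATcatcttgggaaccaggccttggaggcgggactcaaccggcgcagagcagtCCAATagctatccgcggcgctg
Mcm6 (chr1:128359706-128359865, minus strand): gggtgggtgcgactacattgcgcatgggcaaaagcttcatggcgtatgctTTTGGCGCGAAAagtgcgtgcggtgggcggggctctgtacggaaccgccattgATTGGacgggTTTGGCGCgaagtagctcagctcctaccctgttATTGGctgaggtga
Gins3 (chr8:95633399-95633558, plus strand): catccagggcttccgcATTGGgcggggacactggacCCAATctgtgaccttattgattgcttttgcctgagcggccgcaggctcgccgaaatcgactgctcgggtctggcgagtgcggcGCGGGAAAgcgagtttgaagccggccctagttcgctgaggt
Pola1 (chrX:93632156-93632315, minus strand): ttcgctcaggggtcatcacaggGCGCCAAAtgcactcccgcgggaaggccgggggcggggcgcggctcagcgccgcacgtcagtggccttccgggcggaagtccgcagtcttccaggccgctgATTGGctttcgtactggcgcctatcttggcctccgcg
Rrm2 (chr12:24708094-24708253, plus strand): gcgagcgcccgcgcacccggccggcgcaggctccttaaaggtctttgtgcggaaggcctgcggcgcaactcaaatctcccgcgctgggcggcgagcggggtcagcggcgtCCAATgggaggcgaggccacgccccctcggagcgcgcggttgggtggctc
Orc1, Cdc6, Mcm5 and Mcm6 rose, while Gins3 and Pola1, whose windows hold the same kind of word, were not called. In Mcm5 and Mcm6 a pair of words facing each other overlap in 1 run of 12 letters. Among members with a window, the median log2 fold was 0.72 for the 14 with an E2F-type word and 0.73 for the 19 without one, so the medians lay close together. Of the 25 members called higher that have a window, 9 held the word, and of the 8 not called, 5 did.

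**Figure D3:**
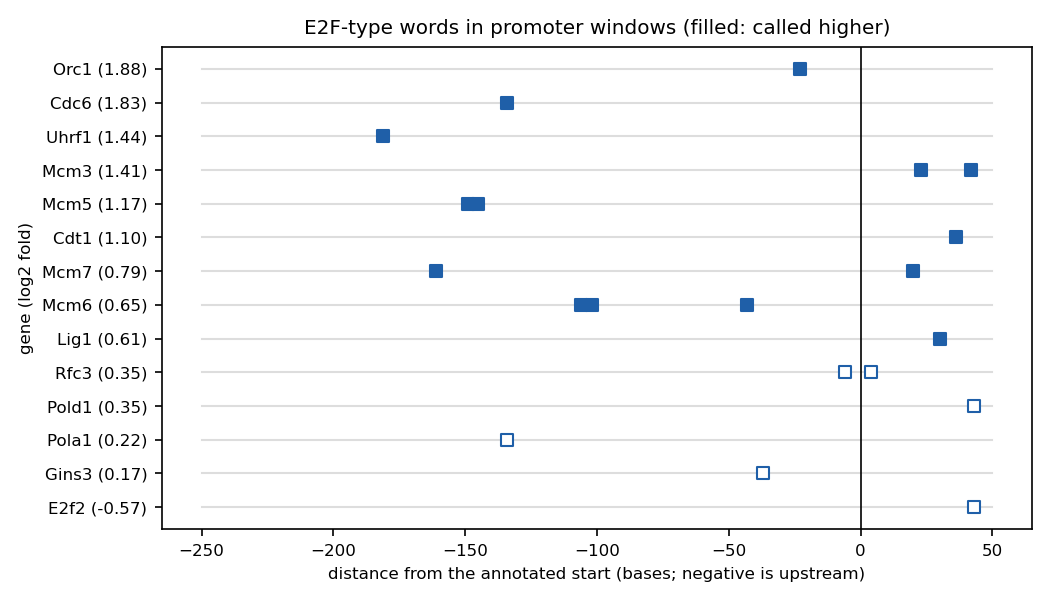
Positions of E2F-type words (squares) in the promoter windows of the 14 genes that hold one, as distance in bases from the annotated start, with the log2 fold in brackets and filled squares for genes called higher. The words lie on both sides of the start, and 9 of the 14 genes are called higher.

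Among the 5 genes of origin recognition and helicase loading, 4 rose and Orc2 was not called. Orc1, the largest subunit of the origin recognition complex and a known E2F target, was at 0.281, 0.259 and 0.406 CPM in controls 1, 2 and 3 and at 1.21, 1.19 and 1.10 CPM in libraries 1, 2 and 3 labelled Grp78KO. It is a scarce transcript, but the groups were far apart (log2 fold 1.88, SE 0.269, edgeR adjusted p = 0.00243). Cdc6, which joins the origin recognition complex in G1, was at 0.719, 0.835 and 1.94 CPM in the controls and 4.19, 4.89 and 3.38 CPM in the knockout-labelled libraries (log2 fold 1.83, SE 0.386, edgeR adjusted p = 0.00999). Control 3 held over 2 times the Cdc6 of the other two controls and still lay below every knockout-labelled library. Cdt1, which brings the helicase to the origin, was at 3.61, 3.31 and 5.01 CPM in the controls and 8.52, 9.28 and 7.76 CPM in the others (log2 fold 1.10, SE 0.178, edgeR adjusted p = 0.00383). Its inhibitor geminin, encoded by Gmnn and not itself a member, was at 9.32, 9.28 and 10.9 CPM in the controls and 9.12, 9.62 and 10.5 CPM in the others, with overlapping groups (log2 fold -0.01, SE 0.113, edgeR adjusted p = 0.945). Per kb of exon, Gmnn was 4.75, 5.16 and 4.01 times Cdt1 in controls 1, 2 and 3 and 1.97, 1.91 and 2.50 times in the knockout-labelled libraries, which did not overlap.

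The remaining origin subunits had smaller folds. Orc6, the smallest subunit, was at 9.90, 9.76 and 9.58 CPM in the controls and 13.7, 13.5 and 12.8 CPM in the knockout-labelled libraries, a small rise with little spread (log2 fold 0.45, SE 0.0879, edgeR adjusted p = 0.00745). Orc2, a core subunit present through the cycle, was at 23.3, 22.8 and 18.7 CPM in the controls and 32.8, 33.7 and 22.0 CPM in the others, with library 3 labelled Grp78KO inside the range of the controls (log2 fold 0.45, SE 0.175, edgeR adjusted p = 0.0789; blocked on replicate number, 0.0132). Nif3l1, on the opposite strand, shares 24.0% of the exon bases of Orc2, and whether the counting used strand is not known.

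All 7 MCM genes had positive folds and 6 were called. Mcm3 and Mcm5, neighbours in the MCM2-7 ring, rose most. Mcm3 was at 5.83, 5.69 and 9.85 CPM in controls 1, 2 and 3 and 19.7, 20.6 and 16.6 CPM in the knockout-labelled libraries (log2 fold 1.41, SE 0.222, edgeR adjusted p = 0.00342). Mcm5 was at 8.04, 8.26 and 13.1 CPM in the controls and 23.4, 24.6 and 18.3 CPM in the others (log2 fold 1.17, SE 0.210, edgeR adjusted p = 0.0055). In both genes control 3 was the highest control and library 3 labelled Grp78KO the lowest of its group, without overlap. Mcm7, the most abundant MCM gene per kb, was at 20.8, 19.9 and 24.2 CPM in the controls and 39.4, 39.8 and 33.0 CPM in the others (log2 fold 0.79, edgeR adjusted p = 0.00262). Mcm6 was at 14.7, 14.3 and 20.3 CPM in the controls and 25.9, 27.0 and 24.5 CPM in the others (log2 fold 0.65, edgeR adjusted p = 0.0119), a call that ended without control 2 (edgeR adjusted p = 0.0579). Mcm2 rose as well (log2 fold 0.77, edgeR adjusted p = 0.0251). It came close to overlap, at 19.9 CPM in control 3 and 21.3 CPM in library 3 labelled Grp78KO, and its call ended (at up to 0.102) when any of controls 1 and 2 or libraries 1 and 2 labelled Grp78KO was left out. Mcm10, a scarce firing factor outside the ring, was at 0.693, 0.702 and 1.08 CPM in the controls and 1.65, 1.46 and 1.67 CPM in the others (log2 fold 0.95, edgeR adjusted p = 0.0212), and lost its call in the same 4 fits as Mcm2, at up to 0.0906.

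Mcm4 was the ring subunit that was not called. It was at 17.8, 16.6 and 20.3 CPM in the controls and 21.1, 21.6 and 19.3 CPM in the knockout-labelled libraries, with the groups overlapping (log2 fold 0.18, SE 0.105, edgeR adjusted p = 0.211). Since the ring holds 1 copy of each of Mcm2 to Mcm7, their levels per kb of exon can be set side by side. In controls 1, 2 and 3 the most abundant of these genes stood 3.66, 3.57 and 2.51 times above the least, and in the knockout-labelled libraries 2.26, 2.24 and 2.10 times. Mcm3 was the lowest in every control, at 2.35 CPM per kb there on average, and Mcm4 was second only to Mcm7 in controls 1 and 2. In libraries 1 and 2 labelled Grp78KO, Mcm4 and Mcm6 were the lowest, at 5.76 and 5.90 CPM per kb as the mean of all 3 libraries. The 6 levels were thus closer together there, with Mcm7 still apart at 12.6 CPM per kb.

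**Figure D4:**
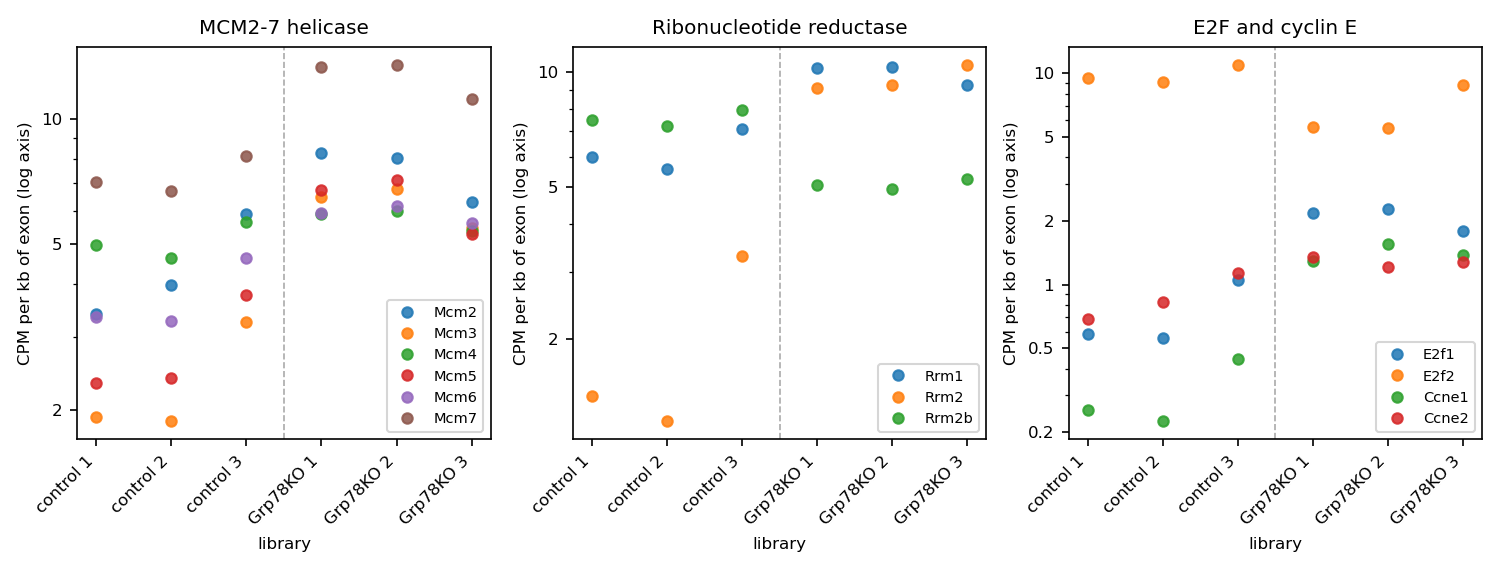
CPM per kb of exon (log axis) in each library for the MCM2-7 genes, the ribonucleotide reductase genes, and the E2F1, E2F2 and cyclin E genes; each point is 1 library and the dashed line parts controls from libraries labelled Grp78KO. The MCM genes lie closer together on the right, Rrm2 lies above Rrm2b in every knockout-labelled library, and E2f2 lies nearer to E2f1 on the right.

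Of the factors that turn the loaded ring into a working helicase, Cdc45, Gins1 and Gins2 rose, and Gins3 and Gins4 were not called. Gins2 had the lowest adjusted p of all members: it was at 5.81, 5.76 and 6.38 CPM in the controls and 17.0, 18.8 and 14.0 CPM in the knockout-labelled libraries (log2 fold 1.47, SE 0.131, edgeR adjusted p = 0.000601). Gse1, on the opposite strand, shares 70.7% of the exon bases of Gins2 in the annotation, and fell (log2 fold -1.25, edgeR adjusted p = 0.00802). Cdc45 was at 2.48, 2.73 and 2.93 CPM in the controls and 8.14, 8.13 and 5.62 CPM in the others (log2 fold 1.43, SE 0.180, edgeR adjusted p = 0.00153). Controls were tight for both genes, and the lowest knockout-labelled library was library 3. Gins1 was at 1.11, 1.06 and 1.40 CPM in the controls and 2.36, 2.45 and 1.81 CPM in the others (log2 fold 0.89, edgeR adjusted p = 0.0168), a call that ended when any of controls 1 and 2 or libraries 1 and 2 labelled Grp78KO was left out (edgeR adjusted p up to 0.0763). Gins3 was at 0.965, 1.11 and 1.23 CPM in the controls and 1.15, 1.18 and 1.39 CPM in the others, with the groups overlapping (log2 fold 0.17, SE 0.210, edgeR adjusted p = 0.563). It was the 1 member not called in any of the 16 alternatives tried. Gins4 was at 25.7, 21.7 and 21.5 CPM in the controls and 31.4, 29.2 and 23.7 CPM in the others (log2 fold 0.29, edgeR adjusted p = 0.116; blocked on replicate number, 0.0341). GINS holds 1 copy of each subunit, yet Gins4 per kb stood 53.5, 39.4 and 35.0 times above the lowest GINS gene in controls 1, 2 and 3.

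Of 6 genes for polymerases and primase, Pole and Prim1 rose and 4 were not called, and the median log2 fold of the 6 (0.39) was the lowest of the roles described here. Prim1, the catalytic subunit of primase, which lays the RNA primers, was at 3.89, 3.97 and 5.20 CPM in the controls and 7.43, 7.60 and 6.24 CPM in the knockout-labelled libraries (log2 fold 0.70, SE 0.159, edgeR adjusted p = 0.0129). Its call, too, ended without any of controls 1 and 2 or libraries 1 and 2 labelled Grp78KO (edgeR adjusted p up to 0.0669). Its partner Prim2 was at 6.17, 5.79 and 5.93 CPM in the controls and 6.94, 6.27 and 6.11 CPM in the others (log2 fold 0.11, SE 0.113, edgeR adjusted p = 0.473). Per kb, Prim2 stood 1.28, 1.18 and 0.919 times as high as Prim1 in controls 1, 2 and 3 and 0.752, 0.664 and 0.789 times in the knockout-labelled libraries. Pole, the catalytic subunit of the leading-strand polymerase epsilon, was at 1.19, 1.37 and 3.34 CPM in the controls, with control 3 the highest, and 4.11, 4.78 and 4.58 CPM in the others (log2 fold 1.19, SE 0.377, edgeR adjusted p = 0.0415). The Pole call ended without the low-count filter and when any library other than control 3 was left out, at an edgeR adjusted p of up to 0.14. Pola1 and Pola2, subunits of the priming polymerase alpha, were not called. Pola1 was at 6.06, 6.70 and 8.37 CPM in the controls and 8.38, 7.60 and 8.60 CPM in the others (log2 fold 0.22, edgeR adjusted p = 0.266). Pola2 was at 4.98, 4.46 and 6.07 CPM and, in the others, 7.48, 7.14 and 6.31 CPM (log2 fold 0.43, edgeR adjusted p = 0.056), without overlap. Pold1, the catalytic subunit of the lagging-strand polymerase delta, was at 13.2, 11.5 and 15.9 CPM in the controls and 18.9, 19.4 and 13.4 CPM in the others, with library 3 labelled Grp78KO among the controls (log2 fold 0.35, edgeR adjusted p = 0.152).

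The gene of the PCNA clamp, the most abundant member by the mean CPM of either group, was not called. Pcna was at 61.6, 56.0 and 49.1 CPM in controls 1, 2 and 3 and 82.7, 79.2 and 59.2 CPM in the knockout-labelled libraries. Control 1 lay just above library 3 labelled Grp78KO, and the other two knockout-labelled libraries lay above all controls (log2 fold 0.41, SE 0.146, edgeR adjusted p = 0.0629). With the replicate block Pcna was called (log2 fold 0.40, edgeR adjusted p = 0.00818). Of the clamp loader genes, Rfc4 rose most, from 6.36, 6.05 and 5.15 to 11.8, 12.1 and 11.5 CPM, with tight groups (log2 fold 1.01, SE 0.114, edgeR adjusted p = 0.00109). Rfc5 was at 12.5, 10.9 and 12.2 CPM in the controls and 19.4, 17.5 and 16.1 CPM in the others (log2 fold 0.57, edgeR adjusted p = 0.00666). The rise of Rfc2, from 51.1, 48.0 and 45.5 to 59.0, 56.7 and 56.3 CPM, was the smallest of any called member (log2 fold 0.25, SE 0.0813, edgeR adjusted p = 0.0446), and its call ended without the low-count filter and without any library other than library 3 labelled Grp78KO (edgeR adjusted p up to 0.152). Rfc3, at 7.81, 7.04 and 8.27 CPM in the controls and 9.84, 10.7 and 8.91 CPM in the others, missed the threshold (log2 fold 0.35, edgeR adjusted p = 0.0505) although its groups did not overlap. Rfc1, the large subunit of the loader and not a member, was at 20.5, 24.7 and 28.7 CPM in the controls and 20.3, 23.6 and 21.3 CPM in the others, with overlapping groups (log2 fold -0.18, edgeR adjusted p = 0.325).

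Both genes of lagging-strand joining rose. Fen1, the nuclease that trims the flap of an Okazaki fragment, was at 5.94, 5.68 and 6.36 CPM in the controls and 18.1, 16.9 and 12.2 CPM in the knockout-labelled libraries (log2 fold 1.39, SE 0.158, edgeR adjusted p = 0.00111). Controls differed by less than 1 CPM, and the lowest library of the other group was library 3. An annotated antisense gene, Gm10143, shares 78.8% of the exon bases of Fen1, but it was assigned a mean of 0.0409 CPM in the controls and 0.0198 CPM in the others. Lig1, the ligase that seals the nick, was at 10.1, 10.1 and 13.7 CPM in the controls and 16.7, 18.0 and 16.9 CPM in the others (log2 fold 0.61, SE 0.136, edgeR adjusted p = 0.0124), a call that ended without control 2 or without library 2 labelled Grp78KO (edgeR adjusted p up to 0.0625).

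All 4 genes that supply nucleotides rose. Rrm2, the small subunit of ribonucleotide reductase that is made in S phase, had the largest fold of any member: it was at 3.12, 2.68 and 7.24 CPM in controls 1, 2 and 3 and 19.9, 20.3 and 22.9 CPM in libraries 1, 2 and 3 labelled Grp78KO. Control 3 was the highest control and still well below the other group (log2 fold 2.28, SE 0.367, edgeR adjusted p = 0.00447). The large subunit gene Rrm1 was at 23.9, 22.4 and 28.3 CPM in the controls and 40.9, 41.2 and 37.0 CPM in the others (log2 fold 0.68, SE 0.110, edgeR adjusted p = 0.00391). Rrm2b, the p53-inducible small subunit that serves cells outside S phase and is not a member, moved the other way, from 34.1, 32.9 and 36.3 to 23.1, 22.6 and 24.0 CPM (log2 fold -0.57, SE 0.0819, edgeR adjusted p = 0.0025). Per kb of exon, Rrm2b was 5.26, 5.91 and 2.41 times Rrm2 in controls 1, 2 and 3 and 0.557, 0.536 and 0.503 times in the knockout-labelled libraries. By this measure the more abundant small-subunit transcript differed between the groups. By CPM, not divided by length, Rrm2b stayed above Rrm2 in every library. The difference thus rests on the exon lengths used, 4.561 kb for Rrm2b and 2.193 kb for Rrm2. The large subunit Rrm1 per kb stood 4.20, 4.59 and 2.15 times above Rrm2 in the controls and at 1.13, 1.12 and 0.886 times its level in the others.

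Tk1, thymidine kinase of the salvage pathway, was at 2.34, 3.17 and 6.36 CPM in the controls and 10.3, 9.85 and 8.76 CPM in the knockout-labelled libraries (log2 fold 1.28, SE 0.337, edgeR adjusted p = 0.0227). Control 3 was close to the other group, and the call ended without control 2 or without library 1 or 2 labelled Grp78KO (edgeR adjusted p up to 0.09). Tyms, thymidylate synthase of the new-synthesis pathway, was at 10.1, 8.88 and 8.73 CPM in the controls and 17.7, 14.9 and 13.1 CPM in the others (log2 fold 0.73, SE 0.133, edgeR adjusted p = 0.00589), with control 1 the highest control.

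The 3 genes of chromatin copying rose. Uhrf1, which finds half-methylated DNA behind the fork and recruits Dnmt1, was at 3.49, 4.29 and 6.96 CPM in the controls and 13.6, 13.7 and 12.7 CPM in the knockout-labelled libraries (log2 fold 1.44, SE 0.238, edgeR adjusted p = 0.00408). Dnmt1 itself, the maintenance DNA methyltransferase and not a member, was at 29.2, 33.9 and 43.0 CPM in the controls and 30.1, 34.7 and 35.3 CPM in the others, with overlapping groups (log2 fold -0.08, SE 0.148, edgeR adjusted p = 0.682). Chaf1a and Chaf1b, subunits of the histone chaperone CAF-1, had log2 folds of 0.64 (edgeR adjusted p = 0.0306) and 0.61 (edgeR adjusted p = 0.0372; blocked on replicate number, 0.0555). Chaf1a was at 5.47, 6.18 and 8.60 CPM in the controls and 9.26, 10.5 and 11.9 CPM in the others, and was 1 of 6 members in which library 3 labelled Grp78KO was the highest of its group. Chaf1b was at 4.24, 3.58 and 5.60 CPM in the controls and 7.30, 7.21 and 5.96 CPM in the others, with control 3 just below library 3 labelled Grp78KO. Ubxn6, on the opposite strand, shares 48.6% of the exon bases of Chaf1a and was also called higher (log2 fold 0.45). Both CAF-1 calls ended in several fits with 1 library left out, at an edgeR adjusted p of up to 0.116 and 0.136.

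The 4 G1/S regulators split. Ccne1, cyclin E1, was scarce in the controls, at 0.509, 0.451 and 0.888 CPM, and stood at 2.58, 3.12 and 2.75 CPM in the knockout-labelled libraries (log2 fold 2.19, SE 0.293, edgeR adjusted p = 0.00194). Ccne2, cyclin E2, was at 2.19, 2.65 and 3.65 CPM in the controls and 4.33, 3.89 and 4.08 CPM in the others and was not called (log2 fold 0.53, SE 0.205, edgeR adjusted p = 0.0758), although its groups did not overlap. Per kb, Ccne2 was 2.69, 3.67 and 2.57 times Ccne1 in controls 1, 2 and 3 and 1.05, 0.780 and 0.928 times in the others. E2f1, an activator of S-phase genes, was at 1.84, 1.77 and 3.32 CPM in the controls and 6.92, 7.22 and 5.68 CPM in the others (log2 fold 1.52, SE 0.262, edgeR adjusted p = 0.00479).

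E2f2, the other activator E2F among the members, was the single member with a negative fold. It was at 45.2, 42.9 and 52.0 CPM in controls 1, 2 and 3 and 26.5, 26.2 and 41.9 CPM in libraries 1, 2 and 3 labelled Grp78KO. Library 3 was only just below the lowest control, and the adjusted p lay at the threshold (log2 fold -0.57, SE 0.190, edgeR adjusted p = 0.0504; blocked on replicate number, 0.00958). Without library 3 labelled Grp78KO E2f2 was called lower (log2 fold -0.82, edgeR adjusted p = 0.00101). Over all 16 alternatives its fold stayed negative, with an adjusted p of 1.18e-05 to 0.324. Per kb, E2f2 stood 16.3, 16.2 and 10.4 times above E2f1 in controls 1, 2 and 3 and 2.55, 2.42 and 4.91 times above it in the knockout-labelled libraries.

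Of 51 other replication genes that are not members, 20 (39.2%) were called higher and 3 (5.9%) lower, beside 18.0% and 18.8% of all genes tested. Their median log2 fold was 0.28. The 6 with the lowest adjusted p were the clamp loader gene Chtf18 (log2 fold 2.01), the origin-firing helicase gene Recql4 (2.39), Rrm2b (-0.57), the histone chaperone gene Asf1b (1.42), the checkpoint kinase gene Chek1 (1.85) and Rnaseh2b (0.73), a subunit of the nuclease that removes RNA from DNA. Recql4 was at 0.623, 0.643 and 0.873 CPM in the controls and 4.46, 4.55 and 2.19 CPM in the others (SE 0.323, edgeR adjusted p = 0.00201). Asf1b and Chek1 were at 2.41, 2.34 and 3.64 and 0.728, 0.680 and 1.09 CPM in the controls and at 7.02, 8.08 and 7.46 and 3.09, 3.11 and 2.81 CPM in the knockout-labelled libraries. The 3 that fell were Rrm2b, Mcm9 (log2 fold -0.63), a helicase of DNA repair, and Rnaseh2c (-0.37). Mcm9 and Rnaseh2c are named because their values were seen. Without both libraries numbered 3, 31 were higher and 5 lower, and without control 2 or library 2 labelled Grp78KO 11 and 13 were higher. With the replicate block 23 were higher and 3 lower.

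Of 26 genes that control the passage from G1 to S, 8 (30.8%) were called higher and 4 (15.4%) lower. Of all genes tested, 18.0% were higher and 18.8% lower, so the share lower was near that of the whole table. The median log2 fold of the 26 was 0.17. Cdkn1a, the p21 inhibitor of cyclin-dependent kinases and a p53 target, was at 84.9, 81.6 and 66.0 CPM in the controls and 485, 466 and 251 CPM in the knockout-labelled libraries (log2 fold 2.37, SE 0.256, edgeR adjusted p = 0.000931). The inhibitor gene of S-phase entry thus rose in the same libraries as the S-phase genes. Myc, a transcription factor of growth, had a log2 fold of 3.21, E2f7, a repressor E2F that is itself made in S phase, 1.71, and Tfdp1, the partner of E2F proteins, 0.59. Ccnd3, a cyclin of G1, and Rbl2, the Rb relative p130 of resting cells, fell by 0.75 and 0.96 on the log2 scale. Rbl2 was at 62.3, 66.4 and 69.1 CPM in the controls and 29.2, 30.4 and 42.0 CPM in the others, with library 3 again the nearest to the controls. Leaving out 1 library at a time left 4 to 8 of these genes higher and 2 to 5 lower, and with both libraries numbered 3 left out 12 were higher and 6 lower. With the replicate block 9 were higher and 6 lower.

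Libraries of a group differed in a way that many members shared. Control 3 was the highest of the 3 controls for 32 of 41 members, and library 3 labelled Grp78KO was the lowest of its group for 31. The median member lay -0.05, -0.11 and 0.20 on the log2(CPM + 1) scale from the mean of the controls in controls 1, 2 and 3, and 0.66, 0.66 and 0.56 in libraries 1, 2 and 3 labelled Grp78KO. For 20 genes of G2, mitosis and general proliferation the same values were -0.39, -0.37 and 0.76 and 1.35, 1.45 and 1.70, so that library 3 labelled Grp78KO was the lowest of its group for replication genes and the highest for mitotic ones. Of those 20 genes 12 (60%, beside 18.0% of all genes tested) were called higher and 8 were not called, with a median log2 fold of 1.77. With the replicate block 18 were called higher, as many as without control 3, and 7, 8 and 8 without control 1, control 2 and library 1 labelled Grp78KO. Aurka, a mitotic kinase gene, was at 2.31, 2.16 and 3.79 CPM in the controls and 9.11, 8.66 and 11.5 CPM in the others (log2 fold 1.82). Among the others with the lowest adjusted p, the mitotic kinase genes Plk1 and Cdk1 had log2 folds of 1.94 and 2.28. Cdc20 and Ube2c, which act in the anaphase-promoting complex pathway, had 1.98 and 2.22, and Birc5, the survivin gene, 2.04. Top2a, a topoisomerase of dividing cells, was at 6.32, 6.32 and 19.2 CPM in the controls and 30.3, 35.8 and 47.7 CPM in the others (log2 fold 1.84, edgeR adjusted p = 0.0201). Mki67, the Ki-67 proliferation marker, was at 2.35, 3.81 and 17.0 CPM in the controls and 6.86, 12.7 and 18.8 CPM in the others, with control 3 above libraries 1 and 2 labelled Grp78KO, and was not called (log2 fold 0.73, SE 0.730, edgeR adjusted p = 0.468; blocked on replicate number, 0.0453).

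Markers of several other cell types are set beside the members here. Of all genes tested, 18.0% were called higher and 18.8% lower. Above that share higher were the fibroblast and smooth muscle markers (100%) and the mesothelial markers (80%). Below it were the endothelial and AT1 markers (12.5% each) and the leukocyte markers tested (8.33%). Of the AT1 markers 50% were called lower. All 12 fibroblast and smooth muscle markers were called higher, summing to 232, 230.3 and 588 CPM in controls 1, 2 and 3 and 1225, 1320.5 and 1355 CPM in the knockout-labelled libraries, and none was at 0 in any library. The count fell to 7 without control 2 or library 1 labelled Grp78KO, and to 8 without control 1, without library 2 labelled Grp78KO or without the low-count filter. Of 5 mesothelial markers 4 were higher (5 with the replicate block), summing to 106, 103 and 115 and 186, 202 and 180.1 CPM. With limma-voom 3 were higher, as when any 1 library other than library 3 labelled Grp78KO was left out. The 15 leukocyte markers summed to 14.3, 13.9 and 19.0 CPM in the controls and 16.2, 16.9 and 114 CPM in the others, so that library 3 labelled Grp78KO stood alone; 12 were tested and 1, Mrc1, was called higher (4 with the replicate block; without control 3, 1 was lower and none higher), while Marco was at 0 in control 1, Cd8a in control 3 and Cd3e in library 2 labelled Grp78KO. Endothelial markers summed to 470.5, 474 and 438 and 721, 755 and 443 CPM, with 1 of 8, Vwf, called higher. Without library 3 labelled Grp78KO 6 of the 8 were higher and 1 lower, 7 were higher and 1 lower without both libraries numbered 3, and none was called without any other single library. With the replicate block 1 was higher and 1 lower. Of 8 AT1 markers 1 was higher (3 with the replicate block) and 4 lower. AT2 markers summed to 167588, 150013 and 143553 CPM in the controls and 55397, 53412 and 70043 CPM in the knockout-labelled libraries. The part of these other cell types in the rise of the replication genes was not tested. Library 3 labelled Grp78KO held most of the leukocyte marker RNA. Without it, 33 of 41 members were called higher, with a median log2 fold of 0.79. All 12 fibroblast and smooth muscle markers were still called higher in that fit. It also called 8548 of all genes, beside 6938 with all libraries, so its member count was not a test of the part of any cell type.

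**Figure D5:**
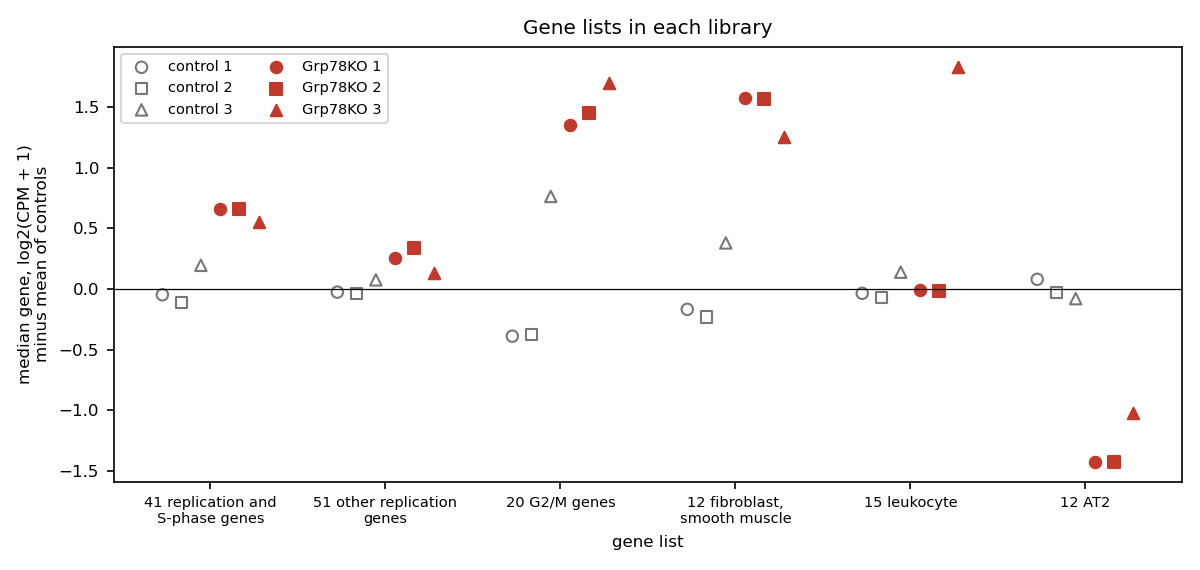
Median gene of each list, as log2(CPM + 1) minus the mean of the 3 controls, in each library; open grey symbols are controls and filled red symbols libraries labelled Grp78KO. Replication genes are higher in all 3 knockout-labelled libraries with library 3 lowest, G2/M genes have library 3 highest, and leukocyte markers are raised in library 3 alone.

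Members that were scarce in the controls had the larger folds. Of 28 members under 10 CPM in the controls on average, 22 were called and the median log2 fold was 1.05. Of 13 at 10 CPM or more, 7 were called and the median was 0.45. Of all genes tested, 18.0% were called higher, and these were not split by level. Across the 41 members, control level and log2 fold had a Spearman correlation of -0.56, given as a description since the same control libraries enter both values and the levels are not corrected for length. The 7 members above 20 CPM in the controls were Mcm7, Rrm1, Orc2, Pcna, Gins4, Rfc2 and E2f2, with log2 folds of 0.79, 0.68, 0.45, 0.41, 0.29, 0.25 and -0.57.

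By annotated position, 15 of the 41 members share exon bases with another gene, all on the opposite strand, and 3 of them, Fen1, Gins2 and Chaf1a, share over 40% of theirs. Whether the counting used strand is not known, so reads of such a pair may not have been told apart. Of the 15 that share exon bases, all but Orc2 and Ccne2 were called higher. Of the 26 members that share no exon base, 16 were called higher, a smaller share, beside 18.0% of all genes tested. Rrm2 (chromosome 12, 24708241 to 24714146, plus strand), Ccne1 (chromosome 7, 38097984 to 38107534, minus strand) and Cdc6 (chromosome 11, 98907801 to 98923940, plus strand) are among those 16 (positions on GRCm38, GENCODE M21).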

How the data were processed

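RNA of 6 libraries, 3 titled Control and 3 titled Grp78KO, was measured by RNA-seq. The deposited table holds whole-number counts per gene as the authors made them. The submitters' processing notes name mm10 and edgeR 3.7, with the counter, its annotation and its strand setting not given in the sources used here. Counts of 2 were more common than counts of 1 in every library, so the mates of a pair may have been counted apart, and no interval was built from single counts. Genes were kept by filterByExpr, scaled by TMM and tested with edgeR 4.0.16 (robust quasi-likelihood F test, R 4.3.3) on the 6 libraries, with Benjamini-Hochberg adjustment over 18849 genes and a threshold of 0.05. A fold's SE is its size over the square root of F. Totals of 110770711 to 149520306 counts gave a common coefficient of biological variation of 22.3%, so spread between libraries and not depth limits most genes. The steps were tested on simulated data. Alternatives were DESeq2 1.42.0, limma 3.58.1 (voom), other scalings and filters, halved counts, a replicate block and leaving out libraries.

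Replicate numbers come from the titles. Same-numbered libraries deviated together from their group means (correlations across genes of 0.397, 0.203 and 0.337 for numbers 1, 2 and 3). Control 2 with library 1 labelled Grp78KO gave 0.168, and control 1 with library 2 gave 0.162. Numbers 1 and 2 were thus less clearly told apart than number 3, and the titles do not say that numbers pair libraries. The blocked value is given where it changes the call of a member or the count of a list. Exon lengths and positions are GENCODE M21 (GRCm38), in which 48018 of 52550 table symbols and all 41 members were found. All 41 members are described. Of the other lists, the 6 genes with the lowest adjusted p and Cdkn1a, Rrm2b, Gmnn, Mki67 and Top2a are named, and others where a result about a member turns on them. One marker list is not reported here. The members and lists were chosen with earlier results of these data known.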

Additional observations from a re-analysis of the deposited data

How the results depend on the processing

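No member's fold changed sign in any of the alternatives run. Of the 29 members called higher, 18 stayed called in all 16 alternatives, and 11 that were not called gained a call in at least 1. Leaving out each library in turn, 18 to 33 members were higher and 0 to 1 lower, 11 to 24 other replication genes were higher and 2 to 5 lower, 4 to 8 G1/S control genes were higher and 2 to 5 lower, and 3706 to 8548 of all genes were called. DESeq2, limma-voom and halved counts each called 1 member lower, E2f2. The fit with a replicate block also called 1 lower, with 31 higher; it changed the calls of Orc2, Gins4, Pcna, Chaf1b and E2f2 and of no other member. With library size alone, 33 other replication genes were higher and 1 lower, 2 G1/S control genes were lower, and the members' median log2 fold was 0.95; with upper-quartile factors 2 G1/S control genes were lower. Without both libraries numbered 3, 31 other replication genes were higher and 5 lower, 1 member was lower, the members' median was 0.90 and 10581 genes were called. The cause of these shifts was not tested. With 3 libraries a group and a common coefficient of biological variation of 22.3%, folds as small as that of Rfc2 (0.25) lie at the limit of the test. Members near the threshold, such as Rfc3 and E2f2, change side with small changes of the fit. Sorting purity, cell cycle phase per cell and strand were not measured.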
